A study of Rattus norvegicus with 32 samples.

Results

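The Egr genes (Egr1, Egr2, Egr3 and Egr4) and the Nab genes (Nab1 and Nab2) were followed across the nucleus accumbens (NAc), dentate gyrus (DG), cornu ammonis (CA) and subventricular zone (SVZ) of rats exposed to methamphetamine (METH) or saline (Sal). They were picked out by gene name, from a list made with earlier results of these data known. All 6 names were found among the 28914 gene names of the count data. Adult male Sprague-Dawley rats received METH at 10 mg/kg or saline in 4 intraperitoneal injections at intervals of 2 h, and the brains were taken on the day after the last injection. Total RNA depleted of ribosomal RNA was sequenced from 4 METH and 4 saline samples of each region, which makes 32 samples, each called by region, treatment and replicate number (CA METH 1, for example). Each sample is a dissected piece of tissue, so a lower level from fewer cells of a type and from less RNA per cell cannot be told apart. The labels do not say that samples of a group come from separate animals, and p-values therefore measure the spread between these samples. By the study's methods the 4 regions were dissected from the same brains, and library numbers recur across the NAc, DG and CA, so samples of different regions may share an animal. Fits and correlations over several regions treat all samples as independent, unless a block is named.

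Egr proteins are zinc finger transcription factors that bind GC-rich DNA and are made within minutes to hours of synaptic activity, when kinase signalling reaches serum response factor and CREB at their promoters. Egr1 (also Zif268 or Krox24) and Egr3 are widely used markers of neuronal activity, and Egr2 (Krox20) also directs myelination by Schwann cells. Nab1 and Nab2 bind Egr1, Egr2 and Egr3 but not Egr4, mostly repress their activity through the chromatin remodelling complex NuRD, and Nab2 is itself induced by Egr factors, which closes a feedback loop.

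Promoter sequences are shown because these letters set the members apart before any expression value is considered. RefSeq (assembly GRCr8) held the promoter of 5 of the 6 members, and Egr3 is named only. The 250 bases before the transcript start are printed 5′ to 3′ on the strand of the gene for Egr1 (chr18:26736828-26737077, plus strand), Egr2 (chr20:21054442-21054691, minus strand), Egr4 (chr4:119607818-119608067, minus strand) and Nab1 (chr9:56545392-56545641, plus strand). Capitals mark the CArG box, the form bound by serum response factor (CC, then 6 letters that are A or T, then GG), the letters ACGTCA of the CREB site, and the letters GCGTGGGCG of the Egr site, on either strand.
Egr1: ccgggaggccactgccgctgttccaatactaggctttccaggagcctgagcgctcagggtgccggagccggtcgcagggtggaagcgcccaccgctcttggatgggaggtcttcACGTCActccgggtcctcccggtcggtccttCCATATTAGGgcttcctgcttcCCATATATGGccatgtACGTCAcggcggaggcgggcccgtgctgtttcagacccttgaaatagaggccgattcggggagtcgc
Egr2: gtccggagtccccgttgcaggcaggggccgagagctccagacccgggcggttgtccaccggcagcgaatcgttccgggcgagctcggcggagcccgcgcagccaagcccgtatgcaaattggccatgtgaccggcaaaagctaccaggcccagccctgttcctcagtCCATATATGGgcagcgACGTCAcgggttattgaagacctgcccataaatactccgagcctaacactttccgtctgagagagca
Egr4: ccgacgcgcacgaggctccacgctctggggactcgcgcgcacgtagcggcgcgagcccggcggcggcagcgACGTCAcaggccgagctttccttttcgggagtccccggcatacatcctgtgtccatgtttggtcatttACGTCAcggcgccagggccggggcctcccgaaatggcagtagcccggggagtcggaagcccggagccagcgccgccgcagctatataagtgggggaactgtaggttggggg
Nab1: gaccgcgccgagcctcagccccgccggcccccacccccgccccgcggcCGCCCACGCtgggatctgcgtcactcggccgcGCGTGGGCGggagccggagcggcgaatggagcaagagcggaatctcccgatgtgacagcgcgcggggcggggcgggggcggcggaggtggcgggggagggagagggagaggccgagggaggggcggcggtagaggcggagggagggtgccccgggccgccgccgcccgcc

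Egr1 had 2 CArG boxes (bases -105 to -96 and -83 to -74 from the start) and 2 ACGTCA matches (-136 to -131 and -67 to -62). Egr2 had 1 of each, at -83 to -74 and -67 to -62, the same distances from the start as the inner pair of Egr1. Egr4 had no CArG box and 2 ACGTCA matches (-179 to -174 and -111 to -106), while the Nab1 promoter had 2 matches to GCGTGGGCG (-202 to -194 and -170 to -162) and the Nab2 promoter had no match to any of these letters. Over 33469 promoters of 300 bases (250 before and 50 after the start), a CArG box was found in 1.64%, ACGTCA in 7.94% and GCGTGGGCG in 0.544%, and at least 2 matches in 0.0209%, 2.2% and 0.0269%. The full site TGACGTCA, which holds ACGTCA on each strand and so counts as 2 ACGTCA matches, was in 1.83% of promoters. The 2.2% includes these promoters, and the share with 2 separate ACGTCA matches was not counted. TATAAA was in 14.2%. Neither TGACGTCA nor TATAAA was in the promoters of these 5 members. A match is a description of these letters and no measure of binding.

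In the count data (rn6), Egr1 lay at chr18:27657628-27661429 (plus strand), Egr2 at chr20:22454463-22459025 (minus strand), Egr3 at chr15:51756736-51760722 (plus strand) and Egr4 at chr4:117293620-117296082 (minus strand), with summed exon lengths of 3130, 3233, 2711 and 2148 bases. Nab1 (chr9:53906073-53945473, plus strand) had 4524 bases of exon and Nab2 (chr7:70961575-70969905, minus strand) had 5304. Of the Nab2 exon bases, 2264 also lie in exons of Stat6 on the opposite strand. Counting ignored strand, and the options given in the methods include none for counting a read under both genes. Reads in the shared bases may therefore be missing from both. The level of Nab2, also per kb of exon, is uncertain to that extent and may be too low.

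The total count on genes per sample ranged from 11094002 to 21869773 (median 14533166.5), so that 1 read was worth between 0.046 and 0.094 CPM (counts scaled by upper-quartile library size). All 6 genes passed the filter on low counts in every region, the lowest being Egr2 with 4 reads in SVZ METH 2. Levels of neuronal and oligodendrocyte markers set 5 libraries apart from the rest of their region, and only these are meant below by libraries that stood apart. In SVZ Sal 1, METH 2 and METH 4 the summed CPM of 7 markers of striatal medium spiny neurons was 175 to 806 against 1439 to 5588 in the other 5 SVZ samples, that of 6 thalamic markers was 1151 to 1904 against 89.1 to 495, and that of 6 oligodendrocyte markers was 18924 to 27744 against 3917 to 9562. The medium spiny neuron sum was 222 in NAc METH 3 against 1498 to 7480 in the other NAc samples, and in DG Sal 3 it was 1728 against 99.5 to 380, with a sum of pallial glutamatergic markers of 85.0 against 1829 to 3320. The summed CPM of 5 choroid plexus markers was 7659 in SVZ METH 3, 5637 in DG METH 3, 1895 in DG Sal 4 and 1956 in CA Sal 2. It was at most 346 in any other sample. Fits without the 5 libraries kept these samples, and the part of choroid plexus in the results was not tested. Sums of dentate granule markers overlapped between the DG (112 to 646) and the CA (202 to 713), so these markers did not separate the dissections. In the library names of the count data, DG Sal 1 and 2 carry numbers that belong to METH samples in the NAc and CA, and DG METH 1 and 2 carry numbers of saline samples there. The 4 SVZ METH libraries carry 2 numbers between them. All samples were used as labelled, and values without the libraries that stood apart are given beside the results of the NAc, DG and SVZ and of the fits over regions. Summed CPM of astrocyte markers was higher after METH without overlap in the NAc (1840 to 2143 in saline, 2207 to 3729 after METH), in the DG (1841 to 2177 and 2602 to 2727) and in the SVZ (1795 to 2213 and 2215 to 2768), and overlapped in the CA (1913 to 2675 and 2328 to 2927). The part of these markers in the comparisons of METH and saline was not tested.

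Per kilobase of exon, Egr1 was the most abundant member in saline in every region and Egr2 the least. The mean of the 4 saline samples of a region was between 40.8 and 53.6 CPM per kb for Egr1 and between 20.7 and 30.1 for Egr3. Egr4 lay at 8.36 to 10.9 CPM per kb and Nab1 at 6.53 to 9.12, with Nab1 (9.12) above Egr4 (8.36) in the CA. Nab2 lay at 5.07 to 5.99, which may be too low as described above, while Egr2 lay between 1.21 and 2.39.

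In saline samples the means of the Egr genes and Nab2 differed between neighbouring regions in their order by less than the spread of the samples. Egr1 was 168 ± 74.4 CPM in the DG, 139 ± 97.1 in the NAc, 136 ± 105 in the CA and 128 ± 66.1 in the SVZ (SD, n = 4), and no neighbours in this order differed by more than 1 SD. Egr3, in the order CA, NAc, SVZ and DG, was 81.7 ± 13.5, 73.6 ± 35.8, 62.5 ± 39.5 and 56.2 ± 17.5 CPM. Egr2 was 7.71 ± 7.61 CPM in the NAc, 5.70 ± 3.86 in the SVZ, 4.05 ± 1.83 in the DG and 3.92 ± 3.37 in the CA. Neighbours in the order of Egr3 or of Egr2 were likewise less than 1 SD apart. Egr4 ranged from 18.0 ± 7.94 CPM in the CA to 23.4 ± 16.2 in the SVZ, and Nab2 from 26.9 ± 5.60 in the DG to 31.8 ± 1.40 in the CA.

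Nab1 had the lowest p of the members for differences between regions in saline. It was 41.3 ± 3.86 CPM in the CA, 40.8 ± 9.80 in the DG, 30.5 ± 5.59 in the NAc and 29.5 ± 3.53 in the SVZ, so the means of the hippocampal regions lay above those of the NAc and SVZ. Nab1 in the CA was 36.6, 41.2, 41.2 and 46.0 CPM and in the SVZ 33.3, 30.1, 24.8 and 29.9 CPM. In DG Sal 3 it was 28.5 CPM, within the ranges of the NAc and SVZ. Over the 4 regions, edgeR's quasi-likelihood test gave an unadjusted p of 0.0156 for Nab1, and the FDR (p adjusted by Benjamini and Hochberg over 15515 genes) was 0.105. The Egr genes and Nab2 had unadjusted p-values between 0.570 and 0.943 in this test. An FDR below 0.01 was reached by 0% of genes here (DESeq2 called 1489 genes and none of the members), and 26.7% of genes had an unadjusted p under 0.05. Among pairs of regions, the log2 difference of Nab1 was 0.48 for CA minus SVZ (SE 0.17, FDR 0.0675, with 31.6% of genes at an unadjusted p under 0.05) and 0.47 for DG minus SVZ (FDR 0.183, 17.6%). It was -0.44 for NAc minus CA (FDR 0.132, 24.1%) and -0.42 for NAc minus DG (FDR 0.378, 11.5%). Library numbers match between NAc and CA saline samples replicate by replicate, and these pairs deviated together. In these 8 samples, with the replicate number as a block, Nab1 had a log2 difference of -0.45 (SE 0.10, FDR 0.0452, with 32.7% of genes at an unadjusted p under 0.05). Without DG Sal 3 and SVZ Sal 1, Nab1 had an unadjusted p of 0.00136 over the regions (FDR 0.0148, with 37.5% of genes under 0.05), and the other members had p-values between 0.350 and 0.702.

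**Figure D1:**
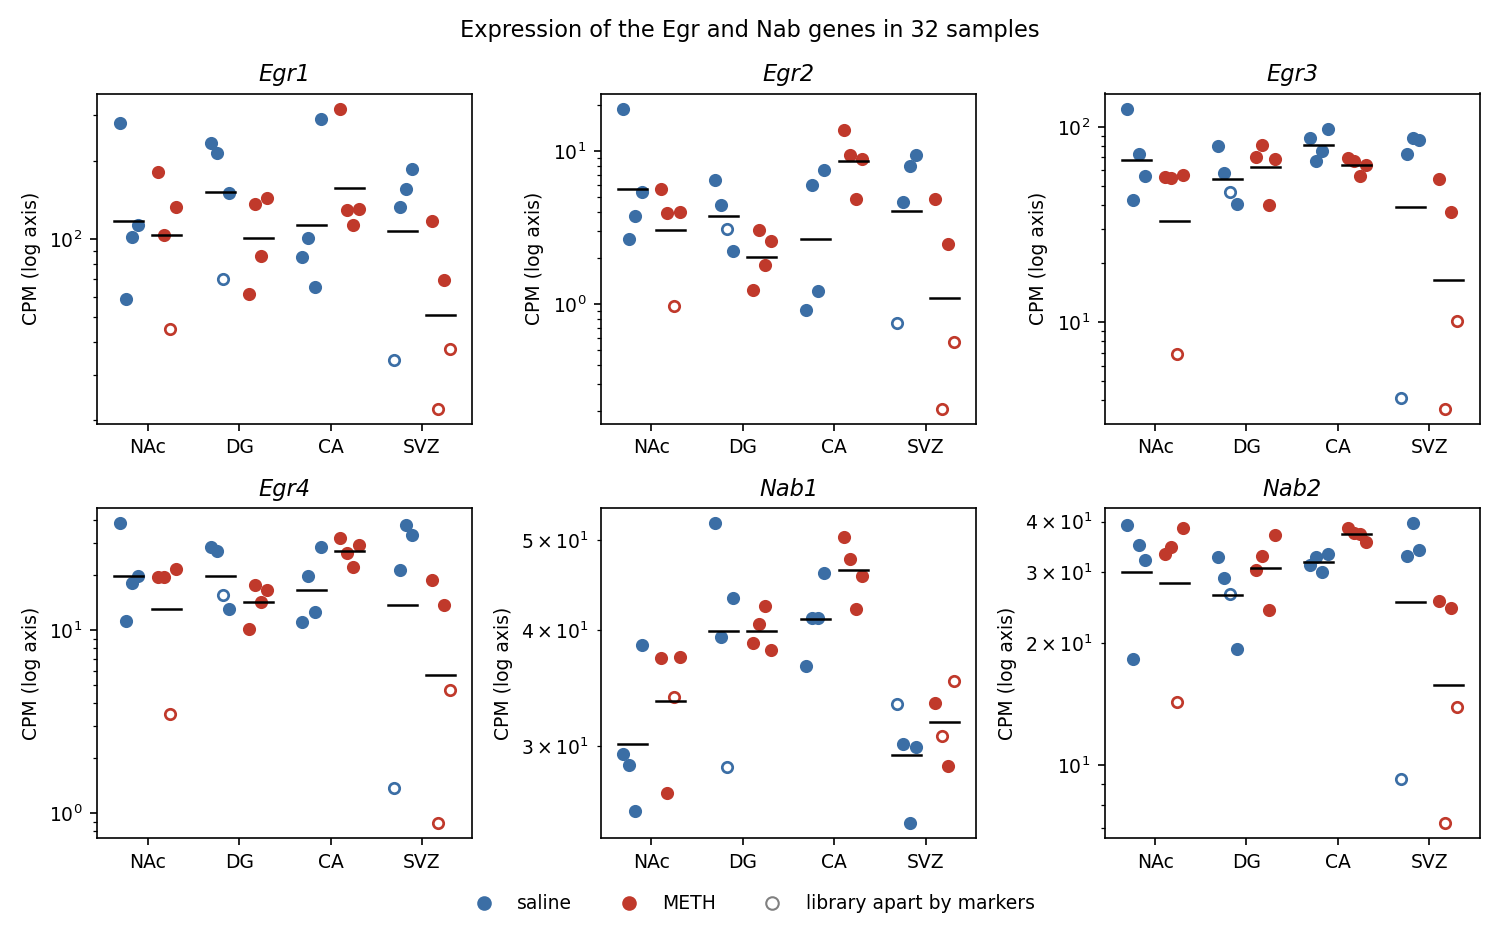
CPM (log axis) of each gene by region, with saline in blue and METH in red, 4 samples a group, a black line at the geometric mean and open symbols for the 5 libraries that marker genes set apart. Nab1 lies at 24.8 to 52.1 CPM over all samples, with its widest group in DG saline (28.5 to 52.1 CPM). Egr3 lies at 3.62 to 10.1 CPM in the open SVZ symbols and at 6.89 CPM in NAc METH 3.

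METH and saline were then compared within each region. A gene was called where its FDR was below 0.01 and it differed by more than 1.5-fold. None of the 6 genes was called in the NAc, DG, CA or SVZ by edgeR's quasi-likelihood test, and neither was any other gene (0% in each region). DESeq2 also called 0 of the 6 members, beside 3, 183, 10 and 2 genes in all in the NAc, DG, CA and SVZ. As a looser description, the share of all genes with an unadjusted p under 0.05 was 3.39% in the NAc, 12.8% in the DG, 7.16% in the CA and 2.58% in the SVZ, beside 0, 1, 2 and 0 of the 6 members. Log2 fold changes below are METH against saline.

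In the CA, Nab2 and Egr3 passed this looser level with opposite signs. Summed CPM of 7 pallial glutamatergic markers was 2650 to 4025 in the CA saline samples and 2098 to 2551 after METH, without overlap, and its part in the CA results was not tested. Nab2, the corepressor induced by Egr factors, was 31.2, 32.6, 30.1 and 33.2 CPM in CA Sal 1 to 4 and 38.6, 37.5, 37.2 and 35.7 CPM in CA METH 1 to 4. Every METH sample was above every saline sample, as in 2.57% of all genes in the CA. The log2 fold change was 0.23 (SE 0.066, 95% interval 0.08 to 0.38), with an unadjusted p of 0.00708 and an FDR of 0.669 in edgeR's test. It stayed between 0.20 and 0.25, with an unadjusted p under 0.05, whichever of the 8 CA samples was left out. Reads in the bases shared with Stat6 may be missing from the Nab2 counts, as described above, and this was not tested.

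Egr3 was 87.3, 66.8, 75.1 and 97.6 CPM in CA Sal 1 to 4 and 69.2, 66.9, 56.0 and 63.9 CPM in CA METH 1 to 4. The METH samples were lower on average, and the groups overlapped in the range from 66.8 to 69.2 CPM. The log2 fold change was -0.35 (SE 0.12, 95% interval -0.63 to -0.08, unadjusted p = 0.0178, FDR 0.669). Without CA Sal 4 or without CA METH 3 the unadjusted p of Egr3 no longer passed 0.05, with log2 fold changes of -0.26 and -0.30.

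Egr2 and Egr4 had higher means after METH in the CA. Egr2 was 0.909, 5.99, 1.21 and 7.58 CPM in CA Sal 1 to 4 and 13.7, 9.46, 4.86 and 8.94 CPM in CA METH 1 to 4. CA METH 3 lay within the saline range and the other METH samples lay above it. The log2 fold change was 1.27 (SE 0.63, 95% interval -0.15 to 2.69, FDR 0.711). Egr4, the family member that Nab proteins do not bind, was 11.1, 19.8, 12.6 and 28.4 CPM in saline and 31.8, 26.5, 22.1 and 29.3 CPM after METH, a log2 fold change of 0.62 (SE 0.28, 95% interval -0.01 to 1.24, FDR 0.705). CA Sal 4 alone among saline samples reached the METH range of Egr4. Without CA Sal 4, the log2 fold change was 1.81 for Egr2 and 0.92 for Egr4, with unadjusted p-values of 0.0222 and 0.0025 (FDR 0.627 for both), and 5 of the 6 members and 7.75% of all genes had an unadjusted p under 0.05. The fit with 4 factors of unwanted variation (RUVr) as covariates called both genes, with log2 fold changes of 1.67 (FDR 0.0020) and 0.69 (FDR 0.0090), among 122 genes called in all, where 22.2% of genes had an unadjusted p under 0.05. With 1 or 2 such factors neither was called (FDR 0.454 and 0.0370 for Egr2, 0.444 and 0.103 for Egr4). With 1, 2 or 4 factors, 6, 5 and 6 members had an unadjusted p under 0.05, against 9.55%, 12.9% and 22.2% of genes. With DESeq2 4 members did (7.06% of genes), with TMM normalization 2 (7.11%) and with 1 fit of all 32 samples 0 (3.65%).

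Egr1 and Nab1 in the CA had log2 fold changes of 0.35 (SE 0.51, FDR 0.876) and 0.17 (SE 0.088, FDR 0.715). Egr1 was between 65.3 and 101 CPM in CA Sal 1 to 3 but 291 in CA Sal 4, and between 113 and 131 CPM in CA METH 2 to 4 but 319 in CA METH 1. A single high sample in each group therefore set the group mean. Without CA METH 1 the log2 fold change of Egr1 was -0.12 and without CA Sal 4 it was 1.04.

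In the DG, Egr2 was the member with an unadjusted p under 0.05. Egr2 was 6.42, 4.46, 3.11 and 2.22 CPM in DG Sal 1 to 4 and 1.23, 3.03, 1.78 and 2.58 CPM in DG METH 1 to 4. DG Sal 1 to 3 lay above all METH samples and DG Sal 4 within their range. The log2 fold change was -0.91 (SE 0.40, 95% interval -1.81 to -0.0033, unadjusted p = 0.0493, FDR 0.390). The unadjusted p was above 0.05 in 5 of the 8 fits that left out 1 DG sample, between 0.0613 without METH 4 and 0.157 without Sal 1 (also without Sal 2, METH 1 or METH 3), where the log2 fold change was -0.60 without Sal 1. With TMM normalization 0 members were under 0.05, against 12.6% of genes. Egr1 was 236, 215, 70.4 and 150 CPM in saline and 61.4, 136, 86.1 and 144 CPM after METH, a log2 fold change of -0.65 (SE 0.40, FDR 0.560), and Egr4 had one of -0.52 (SE 0.28, FDR 0.5003). The groups overlapped for both. Egr3 (0.20, SE 0.26), Nab1 (-0.029, SE 0.17) and Nab2 (0.21, SE 0.18) had FDRs between 0.709 and 0.977.

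The DG values depended on which libraries were used. With only DG Sal 1 and 2 and METH 1 and 2, whose library numbers are crossed relative to the NAc and CA, the log2 fold change was -1.18 for Egr1, -1.35 for Egr2 and -0.99 for Egr4. With only replicates 3 and 4, including DG Sal 4 and METH 3 with high choroid plexus markers, it was 0.053, -0.30 and 0.095. Without DG Sal 3, the library with markers of medium spiny neurons, it was -0.90 for Egr1 (unadjusted p = 0.0206, FDR 0.269) and -1.02 for Egr2 (unadjusted p = 0.0473, FDR 0.354), where 13.9% of genes were under 0.05.

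In the SVZ all 4 Egr genes and Nab2 had lower means after METH, with wide intervals. Egr3 was 4.11, 72.8, 87.9 and 85.2 CPM in SVZ Sal 1 to 4 and 53.9, 3.62, 36.5 and 10.1 CPM in SVZ METH 1 to 4. The lowest values, in SVZ Sal 1, METH 2 and METH 4, belong to the libraries with few medium spiny neuron markers and many thalamic and oligodendrocyte markers. The log2 fold change was -1.26 (SE 0.99, 95% interval -3.54 to 1.02, FDR 0.979), and -1.89 without SVZ METH 1.

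Egr1 was 34.4, 133, 156 and 187 CPM in saline and 118, 22.2, 69.4 and 37.7 CPM after METH in the SVZ, a log2 fold change of -1.04 (SE 0.62, FDR 0.979). Nab2 was 9.25, 33.0, 39.6 and 33.9 CPM in saline and 25.5, 7.19, 24.5 and 13.9 CPM after METH, a log2 fold change of -0.70 (SE 0.51, FDR 0.979). The same libraries were lowest for both genes. Egr2 (-1.49, SE 0.98), Egr4 (-1.29, SE 1.02) and Nab1 (0.12, SE 0.12) also had an FDR of 0.979.

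Without SVZ Sal 1, METH 2 and METH 4, which leaves 3 saline and 2 METH samples, the log2 fold changes were nearer 0, at -0.76 for Egr1, -1.003 for Egr2, -0.86 for Egr3, -0.92 for Egr4 and -0.50 for Nab2. Of the 6 members, 4 (Egr1, Egr3, Egr4 and Nab2) had an unadjusted p under 0.05 against 6.73% of all genes, and none was called (FDR 0.664 to 0.967). The remaining METH samples were below all remaining saline samples for Egr1 (118 and 69.4 against 133 to 187 CPM), for Egr3 (53.9 and 36.5 against 72.8 to 87.9 CPM) and for Nab2 (25.5 and 24.5 against 33.0 to 39.6 CPM). With Egr4, this makes 4 of the 6 members, and 10.7% of all genes had both METH samples below the saline samples in this way. With 1, 2 or 4 RUVr factors in the fit of all 8 samples, 5 members had an unadjusted p under 0.05, against 15%, 19.3% and 24.4% of genes, and none was called. SVZ METH 3, the library with the high choroid plexus sum, stayed in all of these fits. The part of tissue composition in the SVZ values was not tested.

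**Figure D2:**
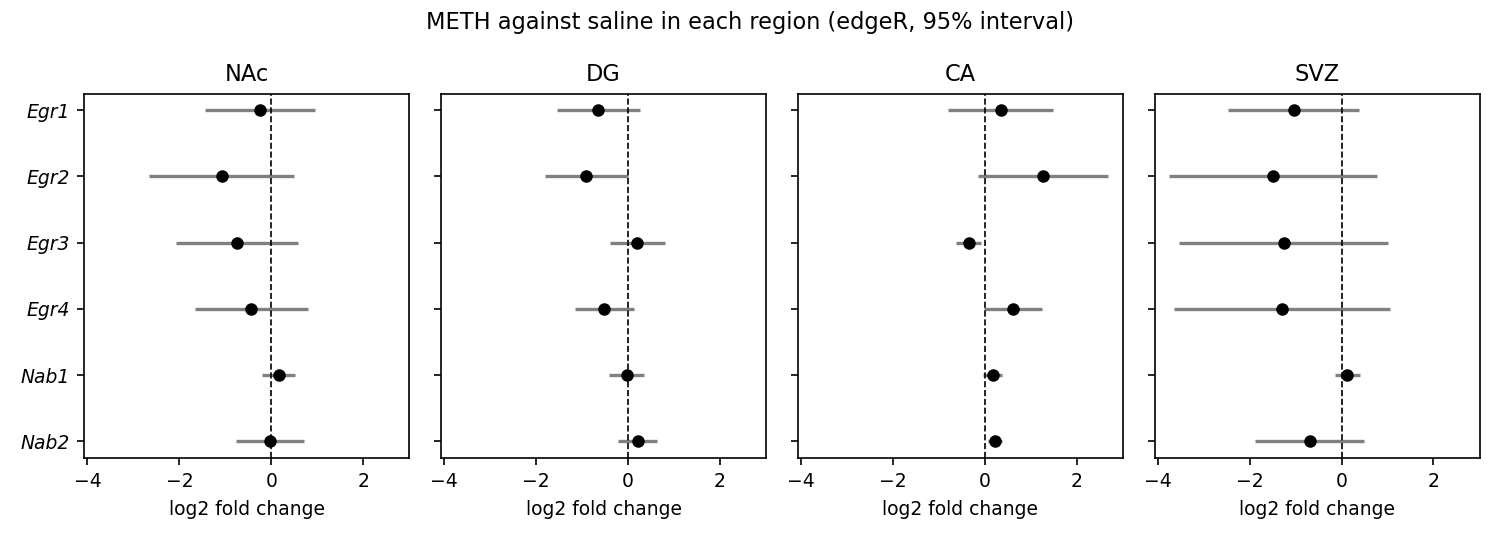
Log2 fold change of METH against saline for each gene in the 4 regions, from edgeR, with dots at the estimate and bars for the 95% interval. The intervals of Egr2, Egr3 and Egr4 in the SVZ are the widest. In the CA the interval of Nab2 lies above 0 (0.08 to 0.38) while that of Egr3 lies below it (-0.63 to -0.08).

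In the NAc no member had an unadjusted p under 0.05. Egr3 was 124, 42.3, 72.5 and 55.8 CPM in NAc Sal 1 to 4 and 55.2, 54.7, 6.89 and 56.9 CPM in NAc METH 1 to 4. NAc METH 3, the library with few medium spiny neuron markers, lay far below the other METH samples, which were between 54.7 and 56.9 CPM. The log2 fold change was -0.75 (SE 0.58, FDR 0.999), -0.39 without NAc METH 3 and -0.38 without NAc Sal 1. Egr2 was 19.0, 2.67, 3.75 and 5.43 CPM in saline and 5.64, 3.96, 0.974 and 4.01 CPM after METH (log2 fold change -1.08, SE 0.69), and it had one of -0.12 without NAc Sal 1 and -0.76 without NAc METH 3. Egr4 was at -0.026 and -0.10 in these fits. Egr1 (-0.24, SE 0.52), Egr4 (-0.44, SE 0.54), Nab1 (0.16, SE 0.16) and Nab2 (-0.030, SE 0.33) likewise had an FDR of 0.999. Some members had lower p-values in the NAc with a covariate in the fit. With the RNA integrity number in the fit, Egr2 was at -2.10 (unadjusted p = 0.0026), Egr3 at -1.82 (0.0113) and Egr4 at -1.36 (0.0229), each with an FDR of 0.399, beside 12.1% of genes under 0.05. With 1, 2 or 4 RUVr factors, 3, 3 and 4 members had an unadjusted p under 0.05, against 8.73%, 13.8% and 19.7% of genes. Egr3 was at -0.98 with 4 factors, with an FDR of 0.0117, and no member was called in these fits of the NAc.

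Text in the library names of the count data sorted the samples of each region into groups, called runs here. The labels do not say what these groups are, and the paper states that RNA was sequenced in 2 batches. In the NAc, run A held 2 saline samples, run C 2 METH samples and run B 2 of each. In the DG, run B held 3 saline samples, run C 2 METH samples and run A DG Sal 3, METH 1 and METH 2. Run and treatment are thus partly confounded in both regions. A fit with run compares METH and saline within run B of the NAc and within run A of the DG only. With run as a term in the fit, the log2 fold changes of the NAc were 0.41 for Egr1, 0.068 for Egr2, -0.21 for Egr3 and 0.052 for Egr4. Those of the DG became 0.48 for Egr1, -0.56 for Egr2, 0.68 for Egr3 and -0.18 for Egr4, so that Egr1 changed sign in both regions. The saline side of these DG values is DG Sal 3 alone, the library with markers of medium spiny neurons. In the CA, Sal 1 and 2 were marked as merged, and each run with both treatments held 1 saline and 2 METH samples. The log2 fold changes of Egr3 and Nab2 there were -0.42 and 0.24 (unadjusted p = 0.0117 and 0.0219). In the SVZ, both runs held 2 samples of each treatment. SVZ Sal 1, METH 2 and METH 4, the libraries that stood apart, were all in the same run, with SVZ Sal 2. Run and these marker levels therefore largely coincide in the SVZ. The log2 fold changes of Egr1 and Egr2 there were -1.17 and -1.90 (unadjusted p = 0.0268 and 0.0188). No member was called in any of these fits with run.

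Averaged over the 4 regions in 1 fit of all samples, the log2 fold change was negative for the Egr genes (Egr1 -0.40, Egr2 -0.56, Egr3 -0.54 and Egr4 -0.41) and near 0 for Nab1 (0.10) and Nab2 (-0.08). Unadjusted p-values were between 0.105 and 0.664, so 0 of the 6 members fell under 0.05, against 7.83% of all genes, and none was called (0% of genes). Without the 5 libraries that stood apart, Egr3 was at -0.38 (SE 0.14, unadjusted p = 0.0155, FDR 0.647), 1 of 6 members under 0.05 against 7.07% of genes. Differences of the METH effect between regions were tested as an interaction. Egr2 had the lowest p of the members (unadjusted p = 0.0854, FDR 0.740), and 0 of 6 members and 7.74% of genes fell under 0.05, with no gene called (0%). Without the 5 libraries that stood apart, Egr2 (unadjusted p = 0.0498, FDR 0.417) and Egr4 (0.0281, FDR 0.360) fell under 0.05, against 12% of genes. Between single pairs of regions, the effect on Egr2 in the CA minus that in the SVZ was 2.74 on the log2 scale (SE 1.11, FDR 0.980, with 3.79% of genes at an unadjusted p under 0.05), and that in the NAc minus that in the CA was -2.34 (SE 1.10, FDR 1.00, 1.18%).

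The spread between samples was wider for the Egr genes than for Nab1 in every region, and for Egr3 in the CA it was below that of the median gene. In the NAc, the biological coefficient of variation (BCV) from edgeR was 0.511 for Egr1, 0.654 for Egr2, 0.563 for Egr3 and 0.527 for Egr4, where the median of all genes was 0.186, and between 95.6% and 98.2% of genes had a lower BCV than these. Nab1 had 0.177 there, close to the median gene. In the CA, Egr1 (0.489) and Egr2 (0.607) stayed high, whereas Egr3 had 0.138 (median gene 0.152), Nab1 0.108 and Nab2 0.0903, and only 0.486% of genes had a lower BCV than Nab2. In the SVZ, Egr2, Egr3 and Egr4 reached 0.917, 0.901 and 0.940 and Nab1 stayed at 0.176. The BCV of Nab2 was 0.507 in the SVZ, 0.328 in the NAc and 0.214 in the DG. In the DG, Egr1 had 0.396, Egr2 0.405, Egr3 0.278, Egr4 0.301 and Nab1 0.200, with a median gene of 0.224. Without the 3 libraries that stood apart in the SVZ, the BCV of Egr2, Egr3 and Egr4 was 0.354, 0.181 and 0.238 and that of Nab1 0.16, with a median gene of 0.215. Without NAc METH 3, the Egr genes of the NAc were at 0.298 to 0.563 and Nab1 at 0.178.

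Correlations among the members were computed on log2(CPM + 1). In the first set, each value was taken relative to the mean of its region and treatment, so that the 32 samples carry only variation within groups. All 6 pairs of Egr genes were positively correlated (Pearson's r 0.78 to 0.95) and so were the 4 pairs of an Egr gene with Nab2 (0.77 to 0.96), and these 10 of 15 pairs had an adjusted permutation p under 0.05 (Benjamini-Hochberg over the 15 pairs). The closest pair was Egr3 and Nab2 (r = 0.96, Spearman's rho = 0.91, permutation p = 1e-05 for both, the smallest that 100000 resamples can give, and r = 0.93 without the 2 samples farthest from the median). Egr3 and Egr4 had r = 0.95 and Egr1 and Egr2 had r = 0.90 (adjusted permutation p = 1.88e-05 for both). Nab1 had r between -0.13 and 0.25 with the other 5 genes and adjusted permutation p-values between 0.315 and 0.864.

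Without the 5 libraries that stood apart, the same 10 pairs passed in the remaining 27 samples, with lower coefficients. Egr3 and Nab2 had r = 0.81 (rho = 0.67, adjusted permutation p = 0.00465), Egr3 and Egr4 had r = 0.69 and Egr2 and Egr4 had r = 0.93. The coefficients of Egr genes with each other ranged from 0.62 to 0.93 and those with Nab2 from 0.55 to 0.81. By Spearman's rho, Nab1 also passed with Egr1 (rho = 0.46) and with Egr2 (rho = 0.47, adjusted permutation p = 0.0379 for both), while its Pearson's r was 0.36 with each (adjusted permutation p = 0.156 and 0.182).

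Within single regions, where the difference between METH and saline also enters, the correlation of Egr3 and Nab2 was positive in the DG and negative in the CA, a difference that was not tested itself. In the DG, Egr2 and Egr4 had r = 0.96 over the 8 samples (rho = 0.90, exact permutation p = 0.000347, adjusted 0.00428 over the 45 pairs of the NAc, DG and CA, and r = 0.89 without the 2 farthest samples). Egr3 had r between 0.32 and 0.37 with Egr1, Egr2 and Egr4 there, and r = 0.87 with Nab2 (rho = 0.83, exact permutation p = 0.00258, adjusted 0.0116, and r = 0.75 without the 2 farthest samples). Egr1 had r = 0.79 with Egr2 and 0.83 with Egr4 (adjusted exact permutation p = 0.0498 and 0.0361), so that 4 of the 15 pairs of the DG passed. The same 4 pairs passed without DG Sal 3, where p was adjusted over 60 pairs that include the SVZ.

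In the CA, Egr2 and Egr4 had r = 0.98 (rho = 0.90, exact permutation p = 0.000422, adjusted 0.00428, and r = 0.85 without the 2 farthest samples). Nab1 was correlated with Egr4 in this region (r = 0.90, rho = 0.90, exact permutation p = 0.000546, adjusted 0.00428, and r = 0.91 without the 2 farthest samples) and with Egr2 (r = 0.90, adjusted exact permutation p = 0.00428). Egr2 and Nab2 had r = 0.82 (adjusted exact permutation p = 0.0312), which fell to 0.49 without the 2 farthest samples and so rests on them. Egr3 and Nab2 had r = -0.57 in the CA (adjusted exact permutation p = 0.251), where METH and saline samples differed in opposite directions for these genes.

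In the NAc, Egr1 and Egr2 had r = 0.93 (rho = 0.98, exact permutation p = 0.000322, adjusted 0.00428, and r = 0.86 without the 2 farthest samples). Egr3 and Egr4 had r = 0.97 (rho = 0.74, adjusted exact permutation p = 0.0116), which fell to 0.65 without the 2 farthest samples. Without NAc METH 3, 3 of the 15 pairs of the NAc passed instead of 8, namely those among Egr1, Egr2 and Egr4. Their r was 0.89 to 0.93, with an exact permutation p between 0.00258 and 0.0103. This p was adjusted over 60 pairs that include the SVZ, and whether the pairs pass over 45 was not computed. Without the 2 farthest samples r fell to 0.65 for Egr1 and Egr2, 0.34 for Egr1 and Egr4 and 0.11 for Egr2 and Egr4. The 3 coefficients so rest on these samples. Over the NAc, DG and CA, 17 of 45 pairs had an adjusted p under 0.05. No coefficient is given for the SVZ, because its samples fell into 2 clusters of 3 and 5 by marker genes and neither is large enough to test. Runs held at most 4 samples of a region, too few for a correlation within a run.

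**Figure D3:**
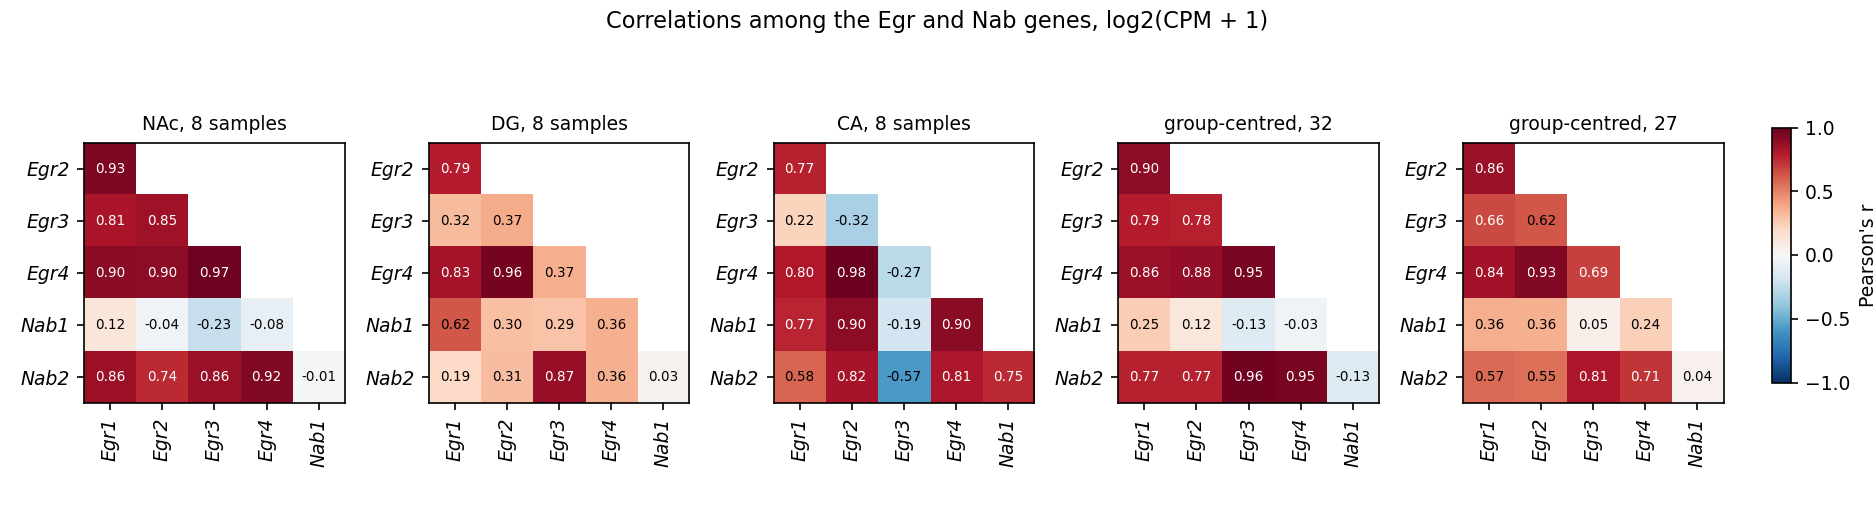
Pearson's r between the 6 genes in the NAc, DG and CA (8 samples each) and around group means in 32 samples and in the 27 samples left without the 5 libraries that stood apart. Nab1 is pale against the other genes around group means in 32 samples (-0.13 to 0.25). In 27 samples it has r = 0.36 with Egr1 and with Egr2. Egr3 with Nab2 goes from 0.87 in the DG to -0.57 in the CA.

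In the NAc and SVZ, the Egr genes and Nab2 were low in the libraries where markers of medium spiny neurons were low. The 4 libraries with summed markers of 175 to 806 CPM had Egr3 at 3.62 to 10.1 CPM and Nab2 at 7.19 to 14.3 CPM. The other 12 samples of these regions had Egr3 at 36.5 to 124 CPM and Nab2 at 18.3 to 39.6 CPM, so the sets did not overlap. Egr1 was at 22.2 to 45.1 against 58.8 to 280 CPM and Egr4 at 0.879 to 4.69 against 11.3 to 38.4 CPM. With Egr2, 5 of the 6 members and 6.23% of all genes were lower in the former without overlap. Nab1 was 30.7 to 35.2 CPM in the former and 24.8 to 38.5 CPM in the latter. The part of this difference in the comparisons of METH and saline was not tested beyond the fits without these libraries.

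**Figure D4:**
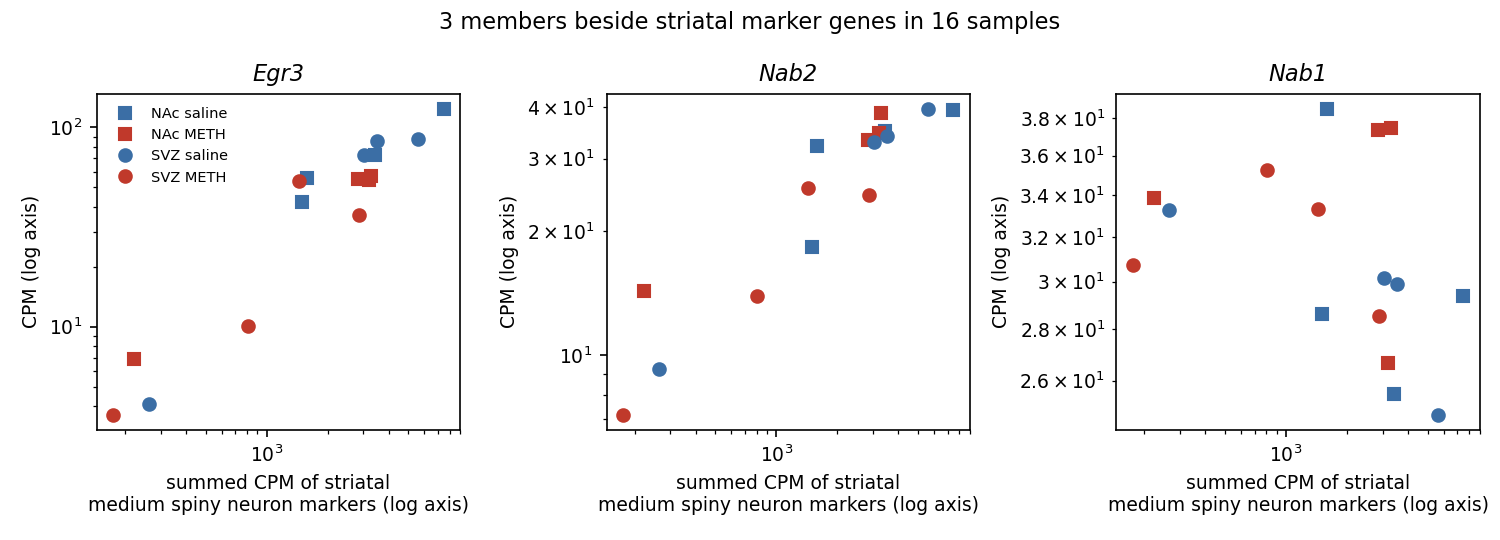
CPM of Egr3, Nab2 and Nab1 against the summed CPM of 7 medium spiny neuron markers in the 16 NAc (squares) and SVZ (circles) samples, with saline in blue and METH in red, both axes on a log scale and a separate vertical range for each gene. Egr3 and Nab2 are lowest in the 4 samples with the lowest marker sums (175 to 806 CPM), and Nab1 is at 30.7 to 35.2 CPM in them.

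For each member, the 3 genes with the most similar pattern around group means were taken from 16116 genes, as a description with no test. Egr1 was most like Nr4a1, an orphan nuclear receptor and immediate early gene (r = 0.95, and 0.94 in 27 samples), then Junb, a subunit of the transcription factor AP-1 (0.92), and Cdk5r2, an activator of the kinase Cdk5 (0.90). Egr2 was most like Junb (0.88), Dock3 (0.88) and Lzts1 (0.85). Egr3 was close to Cbfa2t3, a transcriptional corepressor (0.97), and Baiap2, a synaptic scaffold protein (0.97). Egr4 was closest to Plk2, an activity-induced kinase (0.97), Wdr17 (0.95) and Ctxn1 (0.95), and Nab2 to Baiap2 (0.98), Dlgap2, a protein of the postsynaptic density (0.97), and Speg (0.97). Nab1 had lower coefficients with its nearest genes, which were Lingo1 (0.80), Oxr1 (0.78) and Nr4a2 (0.78). In the 27 samples these values were between 0.71 and 0.94. All of them share libraries, depth and tissue composition.

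Other genes of the pathway were taken from 4 lists, in which no gene was called in any region. Counts of these lists at an unadjusted p under 0.05 stand beside 3.39% of all genes in the NAc, 12.8% in the DG, 7.16% in the CA and 2.58% in the SVZ. Among 10 upstream kinases and factors, 5 had an unadjusted p under 0.05 in the CA (3 lower and 2 higher after METH), including Elk1, a cofactor of serum response factor (log2 fold change -0.26), Crtc1, a coactivator of CREB (-0.44), and Srf, serum response factor itself (0.20). In the SVZ 2 were higher, Mapk3 (0.38), the kinase ERK1, and Elk4 (0.30), and in the NAc and DG 0 of 10 fell under that p. Their median log2 fold changes were -0.13, 0.12, -0.05 and -0.36 in the NAc, DG, CA and SVZ, where the median of all genes was 0.03, -0.01, 0.01 and 0.02.

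Among 13 subunits of NuRD, the complex that Nab proteins recruit, 1 was higher in the DG, Gatad2a (0.46, SE 0.10, FDR 0.172), and 1 in the CA, Chd3 (0.32, SE 0.10, FDR 0.669). None was lower at an unadjusted p under 0.05 in any region, and none passed it in the NAc and SVZ. Their medians were -0.013 in the NAc, -0.00085 in the DG, -0.038 in the CA and -0.10 in the SVZ.

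Of 12 genes described as Egr targets, 11 were tested in the CA and 12 elsewhere. In the SVZ 3 were lower and 2 higher at an unadjusted p under 0.05, against 2.58% of all genes. Among them, Arc, an activity-regulated synaptic gene (-1.14, SE 0.32), and Grin1, an NMDA receptor subunit (-0.39, SE 0.10), were lower. Th, the rate-limiting enzyme of dopamine synthesis, was higher (1.32, SE 0.41). In the DG Th (-1.496) and Ngfr, the low-affinity neurotrophin receptor (-2.67), were lower, and in the CA Ngfr was higher (1.75). None of the 12 passed in the NAc.

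Among 16 other immediate early genes, the median log2 fold change had the sign of most Egr genes in each region. It was -0.24 in the NAc (12 of 16 negative), -0.29 in the DG (10 negative), 0.33 in the CA (12 positive) and -0.44 in the SVZ (14 negative). At an unadjusted p under 0.05, 2 were lower in the NAc (Nr4a2 at -1.63 and Npas4, a neuronal activity-dependent factor, at -1.03) and 2 in the DG (Fosb at -0.78 and the phosphatase gene Dusp1 at -0.87). In the CA 2 were higher (Klf4 at 0.91 and Fosl2 at 0.59), and in the SVZ 4 were lower, including Npas4 (-3.52), Fos (-1.39) and Junb (-1.32). FDRs of these genes were between 0.372 and 0.999. Without the 3 libraries that stood apart, 4 upstream genes were lower and none higher in the SVZ at that p, where 6.73% of all genes were under 0.05. Of the described targets 3 were lower and 1 higher there, and 1 NuRD gene and 4 other immediate early genes were lower. Medians there were -0.27 for the upstream list, -0.067 for NuRD, -0.16 for the described targets and -0.41 for the other immediate early genes. Without NAc METH 3 the other immediate early genes had a median of -0.10 in the NAc (1 lower), and without DG Sal 3 one of -0.42 in the DG (3 lower).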

How the data were processed

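Reads were processed by the authors, who trimmed adapters (cutadapt 2.7), checked quality (FastQC 0.11.4), mapped to rn6 (STAR 2.5.2b) and counted reads per gene without strand (featureCounts), and deposited unnormalized counts per gene and sample. The versions come from the submitters' processing notes. The headers of the count tables name an Ensembl annotation and the methods a UCSC annotation. Tests were run with edgeR 4.0.16 (upper-quartile normalization, filterByExpr, quasi-likelihood test), limma 3.58.1 and DESeq2 1.42.0 in R 4.3.3, on 14771, 14800, 14612 and 15579 genes of the NAc, DG, CA and SVZ. RUVr was coded from its published description. An SE was obtained as the absolute log2 fold change over the square root of the F statistic. Correlations used scipy 1.17.1 and figures matplotlib 3.10.9, under Python 3.11.15 (pandas 2.3.3, numpy 2.4.6). Permutation tests were two-sided, over all 40320 orders of 8 samples or 100000 resamples within groups. Code for the tests was checked on simulated data. Within groups, every pair of libraries differed beyond sampling noise (chi-square of at least 12.2 per gene), and none was treated as a repeat of another.

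The genes named are the 6 members, the 3 genes most correlated with each, and at most 3 genes with the lowest unadjusted p per pathway list and comparison. Of these, 1 gene is not reported here. The members and lists were chosen with earlier results of these data known. Mkl1 and Mkl2 of the upstream list were not matched in the count tables. Promoters are RefSeq sequences (GRCr8), and motifs were searched on both strands. The alternatives were TMM normalization, DESeq2, the likelihood ratio test, other filters and thresholds, the series count matrix, 1 fit of all 32 samples, the replicate number, RNA integrity number, RUVr factors or run as covariates, another pseudocount, and leaving out single samples. The fits without the 5 libraries that stood apart, the split of DG samples by library number and the sum of SVZ METH libraries with 1 number were chosen after seeing the data, as were the adjustment over 45 pairs and the paired fit of NAc and CA saline samples. Their deviations from group means correlated at 0.12 to 0.24 for every replicate number, and the pairing comes from shared library numbers.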

Additional observations from a re-analysis of the deposited data

Results flagged for a closer look

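Among 48 groups of 4 samples (6 genes in 8 groups), 5 held a sample whose gap to its nearest neighbour, as a share of the range of the group, was above Dixon's 95% critical value. Chance exceeds this value in about 1 of 20 groups if values are normally distributed. The ratio was taken on CPM and not on the log scale used elsewhere, and groups of different genes share libraries. Egr1 in CA Sal 4 was 291 CPM against 65.3 to 101 in the other CA saline samples (gap 0.841 of the range), and Egr1 in CA METH 1 was 319 CPM against 113 to 131 (0.916). Egr2 in NAc Sal 1 was 19.0 CPM against 2.67 to 5.43 in the other NAc saline samples (0.831). In NAc METH 3, the library low in medium spiny neuron markers, Egr3 was 6.89 CPM against 54.7 to 56.9 (0.957) and Egr4 was 3.48 CPM against 19.6 to 21.6 (0.888).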

How the results depend on the processing

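The number of members called, or of correlated pairs, was unchanged or within 1.5 times in 276 of 277 settings, and the exception was the CA with 4 RUVr factors, where 2 members were called instead of 0. The main fits called 0% of genes, so an unchanged count of 0 members says little about how stable the results are. Correlated pairs within regions, 27 of 60 with the SVZ included, numbered between 21 and 30 when 1 sample was left out. Log2 fold changes of members kept their direction and their side of the threshold in 818 of 840 settings. Settings that changed only the threshold used the same fits, so their log2 fold changes could not differ. With run as a covariate, the NAc values turned positive for Egr1 (0.41), Egr2 (0.068), Egr4 (0.052) and Nab2 (0.029). The DG values of Egr1 (0.48) and Nab1 (0.47) turned positive too, where DG Sal 3 was the only saline sample compared within a run. Nab1 in the DG was also positive with the RNA integrity number as a covariate (0.11), and DG replicates 3 and 4 alone gave 0.053 for Egr1, 0.095 for Egr4 and 0.16 for Nab1. Without the 5 libraries that stood apart, the mean effect on Nab2 was 0.026. The cause of these changes was not tested. Leaving out single samples gave -0.55 to 0.35 for Egr1 and -0.22 to 0.20 for Nab2 in the NAc, -0.17 to 0.11 for Nab1 in the DG and -0.12 to 1.04 for Egr1 in the CA. These signs turned without NAc Sal 1 or NAc METH 3 (both genes), NAc Sal 3 (Nab2), DG Sal 1 or DG Sal 4 (Nab1) and CA METH 1 (Egr1).

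The deviations of same-numbered saline and METH samples did not correlate above 0.1 in every pair of any region (r between -0.77 and 0.40), so the replicate number was not taken as a pairing. As a replicate block it called 0 members in each region, turned Nab1 in the DG to 0.00081 and left 4 members of the CA and 0 of the NAc, DG and SVZ at an unadjusted p under 0.05, against 7.74%, 2%, 12.3% and 1.07% of genes in the CA, NAc, DG and SVZ. Between regions in saline, it left 1 member at that p (25.8% of genes). Summing the SVZ METH libraries that share a number left 0 members at that p (1.09% of genes). With 1 fit of all 32 samples, 0 members of the CA or DG were at that p, against 3.65% and 14.6% of genes.

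With 4 samples a group and the spread of the Egr genes, the 95% intervals of their log2 fold changes were wide, that of Egr4 in the SVZ running from -3.65 to 1.06. Egr2, at 4 to 252 reads a sample, had the fewest reads of the members.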
